A study of Mus musculus with 33 samples.

Results

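The immediate early genes described here are Fos, Fosb, Junb, Egr1, Egr2, Egr4, Arc, Npas4 and Nr4a1. They were chosen by name, with earlier results of these data known, and are 9 of the 23366 genes in each of the count tables of mouse frontal cortex RNA-Seq. Immediate early genes are transcribed within minutes of a stimulus from factors that a cell already holds, so that calcium entry and kinase signalling after neuronal firing reach them before any new protein is made. In cortex their RNA and protein are widely used as a record of recent neuronal activity, and their products, most of them transcription factors, go on to regulate later genes. Handling, novelty, arousal and anaesthesia are known to change their RNA.

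The samples were frontal cortex of about 1-month-old C57BL/6 offspring, a mouse strain in common laboratory use. The offspring and their dams had been exposed by whole-body inhalation, during gestation and again during lactation, to filtered air, to e-cigarette aerosol from cartridges with nicotine at 13 to 16 mg/mL, or to aerosol from cartridges without nicotine. Of the 33 libraries, 16 were labelled female (6 air, 5 nicotine, 5 no nicotine) and 17 male (6 air, 6 nicotine, 5 no nicotine). Each library came from 1 pup, with 1 pup taken per litter, and the pups were killed with pentobarbital days after the last exposure, so the libraries hold no sample from the exposure itself. The sexes were sequenced in separate runs and levels were not compared between them.

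The female libraries held 19150562 to 27513174 counts each (median 23583389.5) and the male ones 17845672 to 24787955 (median 20907489), and the 9 genes had between 74 and 11578 counts in any library. The library labelled male nicotine replicate 21 went against its label, with 4632 Xist counts and 1 count over the Y-linked genes, so the tests of the 9 genes that use the male nicotine group, and the summary of the correlations, are given with and without it. Markers of cortical glutamatergic neurons were present in every library: Slc17a7, the vesicular glutamate transporter of cortical neurons, ran from 654 to 2817 CPM (normalized read counts, scaled to a common library total with the TMM factors of edgeR), and Tbr1 from 45.9 to 213 CPM. All 9 genes passed the filter on low counts in both sexes, which kept 15158 genes in females and 15293 in males.

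On the mm9 build, in the GENCODE M1 annotation, Fos lies on chromosome 12 (86814840 to 86818223, plus strand), Fosb on chromosome 7 (19888070 to 19895394, minus strand) and Junb, a gene with 1 exon, on chromosome 8 (87500811 to 87502617, minus strand). Egr2 lies on chromosome 10 (66998223 to 67004936, plus strand) and Egr4 on chromosome 6 (85461125 to 85463583, minus strand). Both Arc (74499513 to 74503000, minus strand) and Nr4a1 (101097277 to 101105223, plus strand) lie on chromosome 15, and Npas4 lies on chromosome 19 (4984355 to 4989971, minus strand). Egr1 is the only one of the 9 that overlaps another annotated gene, Gm17507, on the opposite strand. Use of strand in the counting was not stated, so reads of these 2 genes cannot be told apart.

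Promoter sequences of 7 of the 9 genes were taken from RefSeq (GRCm38.p6), with no entry for Egr1 and Arc. Those of Egr4 and Npas4 are shown because these genes had the clearest differences between groups among the 7, and those of Fos and Nr4a1 as an AP-1 gene and the promoter with the most copies of the element marked. Each is the 250 bases before the start site, read 5′ to 3′ on the gene's strand, with capitals on TGACG, a part of the cAMP response element to which the factor CREB binds, found on either strand (the reverse strand reads CGTCA). They are Fos at chr12:85473640-85473889 (plus strand), Egr4 at chr6:85513590-85513839 (minus strand), Npas4 at chr19:4989972-4990221 (minus strand) and Nr4a1 at chr15:101266596-101266845 (plus strand).
Fos: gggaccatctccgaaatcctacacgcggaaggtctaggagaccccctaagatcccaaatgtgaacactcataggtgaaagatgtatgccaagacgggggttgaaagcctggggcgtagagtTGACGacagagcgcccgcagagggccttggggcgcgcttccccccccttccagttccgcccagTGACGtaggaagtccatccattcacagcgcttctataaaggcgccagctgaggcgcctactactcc
Egr4: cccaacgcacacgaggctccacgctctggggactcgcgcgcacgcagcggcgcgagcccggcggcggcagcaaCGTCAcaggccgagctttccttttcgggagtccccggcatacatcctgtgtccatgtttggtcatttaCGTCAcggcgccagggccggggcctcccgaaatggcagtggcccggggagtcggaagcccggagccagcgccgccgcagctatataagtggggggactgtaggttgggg
Npas4: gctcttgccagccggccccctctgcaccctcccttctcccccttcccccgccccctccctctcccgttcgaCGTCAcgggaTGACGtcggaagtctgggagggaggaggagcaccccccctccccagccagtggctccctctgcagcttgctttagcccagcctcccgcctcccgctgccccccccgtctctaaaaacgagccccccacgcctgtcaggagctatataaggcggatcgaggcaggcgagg
Nr4a1: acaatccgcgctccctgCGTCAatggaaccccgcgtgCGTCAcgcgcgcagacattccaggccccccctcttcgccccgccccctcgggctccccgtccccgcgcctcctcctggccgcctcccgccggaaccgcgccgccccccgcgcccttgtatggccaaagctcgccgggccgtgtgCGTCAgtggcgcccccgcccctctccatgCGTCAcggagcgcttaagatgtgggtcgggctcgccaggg
This shorter element was found before the start site in 6 of the 7 genes, against 17.8% of 32851 RefSeq promoters of the same length. Fos, Egr4 and Npas4 held 2 copies each, Nr4a1 held 4, and Fosb and Junb held 1 each. The first of 5 listed start sites of Egr2 held none, while 3 of its others, whose windows overlap one another, held 2. The full element TGACGTCA (1.55% of all promoters) and the AP-1 site TGANTCA (6.75%), both searched on both strands, were found in none of the 7. The EGR site GCGNGGGCG (4.7% of all promoters) was found in Fosb and Nr4a1, and TATAAA (12.4%) in Fos. A CArG box, the site of serum response factor (1.47% of all promoters), was found at 4 of the 5 start sites of Egr2 and at no start site of the other 6 genes. These matches describe letters in these windows, and no binding was measured.

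Per kilobase of exon, Egr1 was the most abundant of the 9 in air, at 125 ± 27.2 CPM per kb in females and 108 ± 30.5 in males (SD, n = 6 each). Arc followed at 70.5 ± 38.5 in females and 65.0 ± 35.7 in males, and Egr1 was above Arc in all 6 air libraries of each sex. Nr4a1 and Junb came next, at 40.9 ± 13.4 and 37.7 ± 13.0 CPM per kb in females and at 38.8 ± 18.3 and 39.6 ± 18.9 in males. These neighbours did not differ beyond their spread, with a log2 ratio of Nr4a1 to Junb of 0.13 ± 0.17 in females and of Junb to Nr4a1 of 0.03 ± 0.10 in males. Egr4 (27.1 ± 3.70 in females, 27.7 ± 9.84 in males) and Fos (19.9 ± 9.07 and 21.9 ± 10.6) were in the middle. Fosb, Npas4 and Egr2 were the least abundant, with means of 4.18 to 5.43 CPM per kb in females and 3.98 to 9.57 in males. Among them Npas4 and Egr2 could not be ordered in females (log2 ratio -0.00 ± 0.72, with Npas4 above in 2 of 6 libraries), while in males Npas4 was above Fosb in all 6 air libraries (log2 ratio 0.81 ± 0.04).

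**Figure D1:**
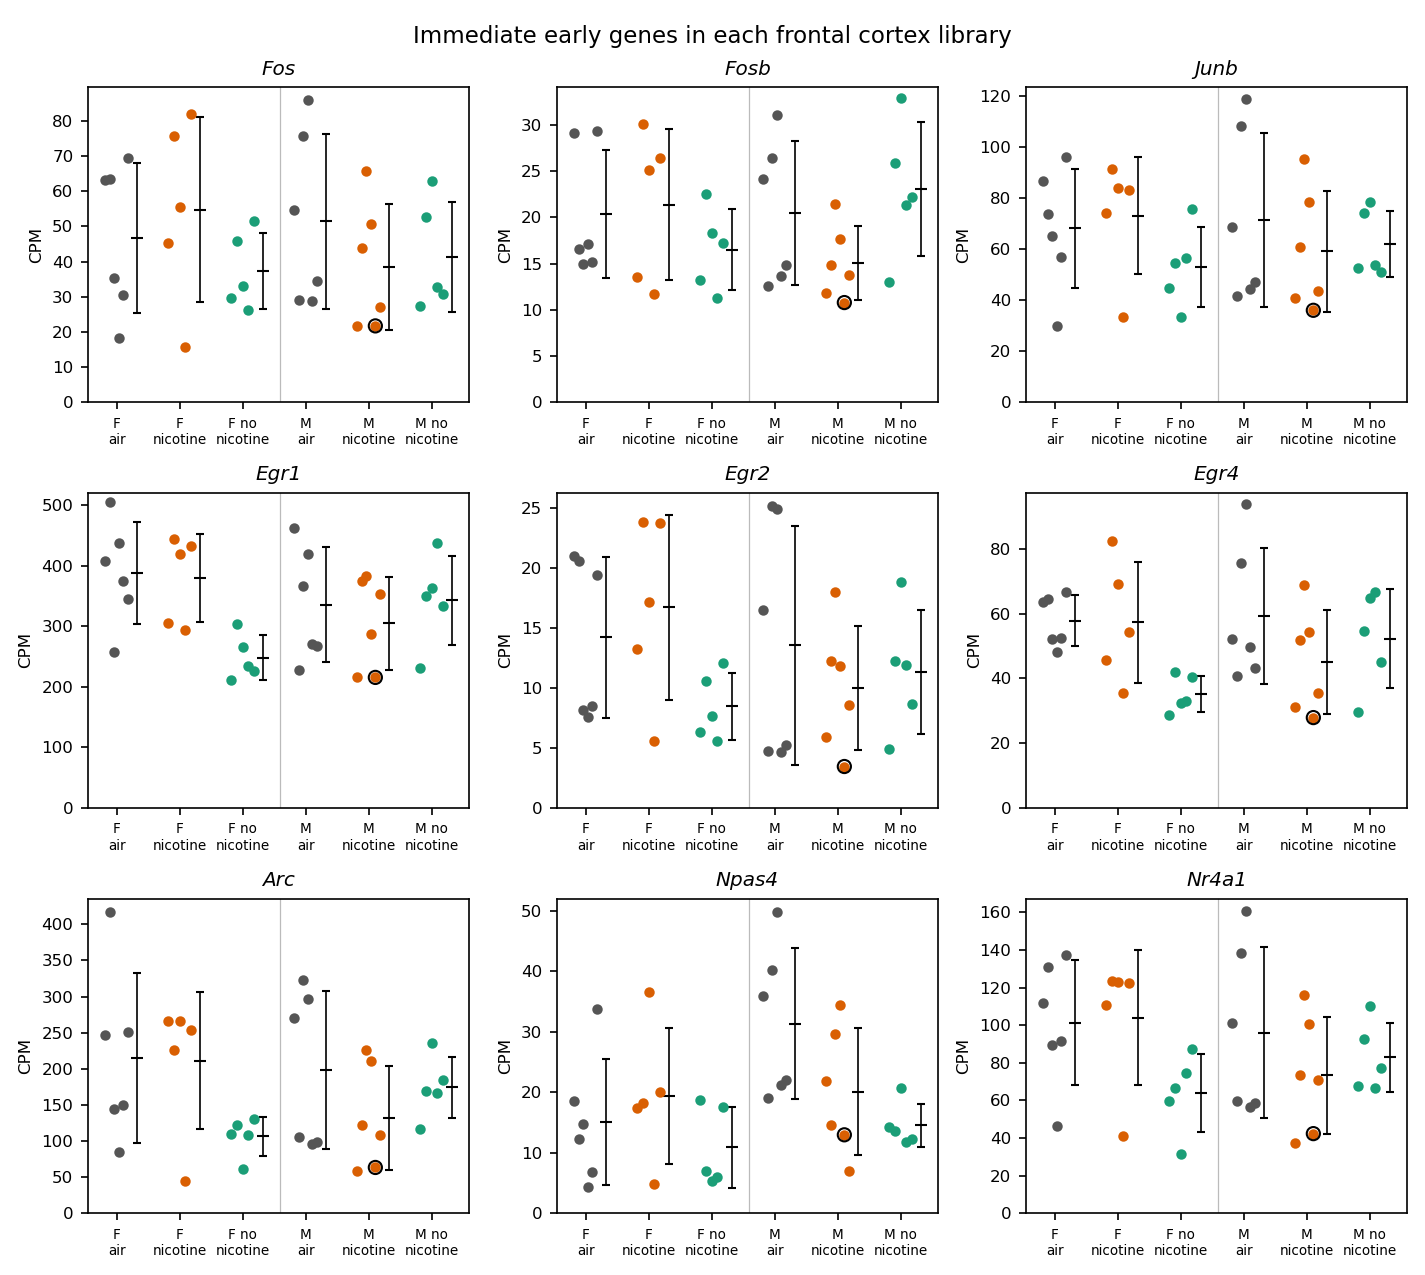
CPM (vertical axis, from 0) of each of the 9 genes in every library of the 6 groups (horizontal axis; F, female; M, male), 1 point per library, with the mean ± SD beside the points and a ring on male nicotine replicate 21. In the Egr4 panel the 5 female no nicotine libraries (28.7 to 41.9 CPM) lie below all 6 female air libraries (48.1 to 66.8 CPM), and in most panels the male air libraries form a high and a low set of 3.

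The clearest difference between groups was in females exposed to aerosol without nicotine, in which Egr1 and Egr4 fell against air and the other 7 genes were lower without passing the test. The comparison asks what the aerosol does without nicotine. Egr4, a zinc-finger transcription factor of the EGR family, was at 28.7, 41.9, 32.4, 32.9 and 40.3 CPM in the 5 no nicotine libraries and at 48.1 (lowest), 57.9 (median) and 66.8 CPM (highest) in air. Its groups did not overlap, as held for 10.7% of all genes tested in this comparison. The log2 fold change of Egr4 was -0.72 ± 0.17 (SE; edgeR quasi-likelihood test, adjusted p = 0.00644), a ratio of 0.609. By the exact two-sided permutation test of log2 CPM its p was 0.00216, the smallest that groups of 6 and 5 allow. This p mostly restates that the groups did not overlap.

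Egr1, also known as Zif268 and long studied in synaptic plasticity, was at 210, 304, 265, 235 and 225 CPM without nicotine and at 258 (lowest), 392 (median) and 505 CPM (highest) in air. Air replicate 3 was the only air library inside the range of the no nicotine group. The log2 fold change of Egr1 was -0.65 ± 0.15 (adjusted p = 0.00576), a ratio of 0.639, with an exact permutation p of 0.0108. Of all genes tested 12.1% passed the threshold of an adjusted p below 0.01 in this comparison, 7.03% with lower expression, against 2 of the 9, both lower. An unadjusted p below 0.05 was reached by 4 of the 9 genes and by 36.4% of all genes. The 9 genes varied together between animals of a group, as described below. Counts of them, here and in the other comparisons, are therefore not counts of independent genes. The median log2 fold change of the 9 genes was -0.65, against 0.01 over all genes.

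The third member of the EGR family among the 9, Egr2 (Krox20), was at 6.27, 10.6, 7.68, 5.58 and 12.1 CPM without nicotine and at 7.59, 13.9 and 20.9 CPM (lowest, median, highest) in air, a log2 fold change of -0.75 ± 0.37 (adjusted p = 0.152). Arc, whose protein acts at the postsynapse in AMPA receptor endocytosis, had the largest fold change of the 9, with 109, 123, 60.9, 108 and 131 CPM without nicotine and 85.1, 198 and 417 CPM in air. The no nicotine group was the tighter one, and air replicate 4, at 85.1 CPM, lay inside it. The log2 fold change of Arc was -1.02 ± 0.40 (adjusted p = 0.0753). Nr4a1, an orphan nuclear receptor also called Nur77, had a log2 fold change of -0.66 ± 0.30 (adjusted p = 0.118), with 31.5 to 87.3 CPM against 46.5 to 137 CPM. The genes of the AP-1 dimer were closer to air, with log2 fold changes of -0.33 ± 0.37 for Fos, -0.31 ± 0.26 for Fosb and -0.36 ± 0.27 for Junb and adjusted p of 0.376 or more. Npas4, a calcium-induced factor of neurons, differed by -0.46 ± 0.51 (adjusted p = 0.557).

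The calls of Egr1 and Egr4 were near the threshold. Without any 1 library, the fold change of Egr4 ran from -0.79 to -0.66 with an adjusted p of 0.00269 to 0.0205, and its call was lost without air replicate 1, 2, 5 or 6 or without any no nicotine library. That of Egr1 ran from -0.74 to -0.56 with an adjusted p of 0.00142 to 0.0182, and its call was lost without air replicate 2, 4 or 5 or without no nicotine replicate 1, 3, 4 or 5. With the replicate numbers of the labels as a block both calls were lost, at an adjusted p of 0.0108 for Egr1 and 0.0130 for Egr4, though same-numbered libraries did not deviate together.

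In females exposed to aerosol with nicotine no difference of the 9 genes from air was detectable against the spread between animals. None of the 9 genes passed the threshold by edgeR, DESeq2 or limma-voom, against 4.29% of all genes by edgeR, and none had an unadjusted p below 0.05, against 28.1% of all genes. No gene of the 9 had groups that did not overlap, as 6.67% of all genes had. The log2 fold changes ran from -0.03 to 0.37 with a median of 0.07, and their standard errors from 0.15 to 0.49. Fos, the AP-1 gene most used as a marker of activated neurons, was at 45.4, 75.6, 55.4, 15.7 and 81.8 CPM with nicotine and at 18.4, 49.3 and 69.5 CPM (lowest, median, highest) in air. The nicotine group thus held both the lowest and the highest Fos of the females, in replicates 5 and 6. Egr4 was at 45.6, 82.4, 69.1, 35.4 and 54.5 CPM with nicotine, on both sides of the air median of 57.9 CPM, and its log2 fold change was -0.01 ± 0.17 (adjusted p = 0.972). That of Egr1 was -0.03 ± 0.15 (adjusted p = 0.911).

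Set against each other, the exposed female groups differed in the same direction in all 9 genes, with higher values in the nicotine group and log2 fold changes of 0.38 to 0.99 (median 0.70, all genes -0.00). The 9 genes varied together between female animals (median Pearson's r of 0.746 over pairs), so these are not 9 separate results. None passed the threshold by edgeR, DESeq2 or limma-voom, and 0% of all genes did by edgeR. An unadjusted p below 0.05 was reached by 5 of the 9 (Egr1, Egr2, Egr4, Arc and Nr4a1), against 8.36% of all genes. For Egr4 the log2 fold change was 0.70 ± 0.18 (edgeR adjusted p = 0.574) and for Egr1 0.61 ± 0.16 (adjusted p = 0.574). No gene of the 9 had groups that did not overlap, which 1.01% of all genes had. Nicotine replicate 5 lay inside the no nicotine range of Egr4, Egr1, Fosb and Nr4a1 and below it in Fos, Arc and Npas4. It was barely below that range in Junb (33.51 against 33.54 CPM) and Egr2 (5.57 against 5.58 CPM). The no nicotine libraries of this comparison are those already compared with air.

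In males exposed to aerosol with nicotine all 9 genes had lower values than in air, and none passed the threshold by edgeR, DESeq2 or limma-voom, as 0% of all genes did by edgeR, and none of the 9 had an unadjusted p below 0.05, against 14.4% of all genes. The groups overlapped for each of the 9, while those of 2.05% of all genes did not. Log2 fold changes ran from -0.65 to -0.14 with a median of -0.42 (all genes 0.01). Because the 9 genes varied together between male animals (median Pearson's r of 0.872 over pairs), their shared direction is not 9 separate results. The largest was that of Npas4, at 7.0, 18.2 and 34.4 CPM (lowest, median, highest) with nicotine against 19.1, 29.0 and 49.7 CPM in air (log2 fold change -0.65 ± 0.31, adjusted p = 0.347). Arc was at 59.0, 115 and 226 CPM against 96.1, 188 and 324 CPM (-0.59 ± 0.37, adjusted p = 0.494). Replicate 21, whose sex-linked counts went against its label, was below the mean of its group in all 9 genes. Without it the 9 log2 fold changes were all still below 0 and ran from -0.55 (Npas4, adjusted p = 0.488) to -0.06 (Egr1, adjusted p = 0.939).

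In males exposed to aerosol without nicotine Npas4 had the largest fold change of the 9 genes, though it did not pass the threshold. Npas4 is a transcription factor made in neurons in response to calcium entry and known for its part in the formation of inhibitory synapses. It was at 14.2, 13.7, 20.7, 11.8 and 12.3 CPM without nicotine and at 19.1, 29.0 and 49.7 CPM (lowest, median, highest) in air. Replicate 4 was the only no nicotine library above the lowest air library. The log2 fold change was -1.10 ± 0.33, a ratio of 0.468, with an exact permutation p of 0.0108, and by edgeR the adjusted p was 0.0216, above the threshold of 0.01. DESeq2 gave an adjusted p of 0.0139, edgeR with robust dispersion 0.0389 and limma-voom 0.0618, the last with a log2 fold change of -0.92. With only the air and no nicotine groups in the edgeR fit it was 0.00695. Leaving out any 1 library gave an adjusted p of 0.00873 (without nicotine replicate 22) to 0.0549 (without air replicate 37), and the fold change ran from -1.26 to -0.92.

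The other 8 genes had log2 fold changes between -0.31 and 0.18 in this comparison, with edgeR adjusted p of 0.559 or more. Egr1 was at 231, 349, 363, 437 and 333 CPM without nicotine and at 228, 319 and 462 CPM in air (log2 fold change 0.03 ± 0.20), and Egr4 at 29.6, 54.8, 65.0, 66.7 and 45.1 CPM against 40.9, 50.9 and 94.0 CPM (-0.18 ± 0.26). Both groups of Egr1 thus covered nearly the same range. In all, 0 of the 9 passed the threshold by edgeR, DESeq2 or limma-voom, against 13.6% of all genes by edgeR, and 1 had an unadjusted p below 0.05, against 36% of all genes. For none of the 9 did the groups fail to overlap, as those of 12.4% of all genes did.

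Between the exposed male groups the largest difference with all libraries was in Fosb. Its product is a Fos-family partner in AP-1 and persists as a shortened splice form after repeated stimulation. Fosb was at 10.8, 14.3 and 21.5 CPM with nicotine and at 13.0, 25.8, 32.9, 21.4 and 22.2 CPM without (log2 fold change -0.62 ± 0.25, edgeR adjusted p = 0.168). Only no nicotine replicates 2 and 5 lay inside the nicotine range. None of the 9 passed the threshold by edgeR, DESeq2 or limma-voom, against 0.248% of all genes by edgeR, and 1 had an unadjusted p below 0.05, against 20.1% of all genes. No groups of the 9 were free of overlap, against 2.15% of all genes. Without male nicotine replicate 21 the value for Fosb was -0.54 ± 0.26 (adjusted p = 0.281), and those of Fos and Junb turned from -0.11 and -0.07 to 0.01 and 0.03. Npas4, at 0.55 ± 0.35 (edgeR adjusted p = 0.431), then differed about as much as Fosb.

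**Figure D2:**
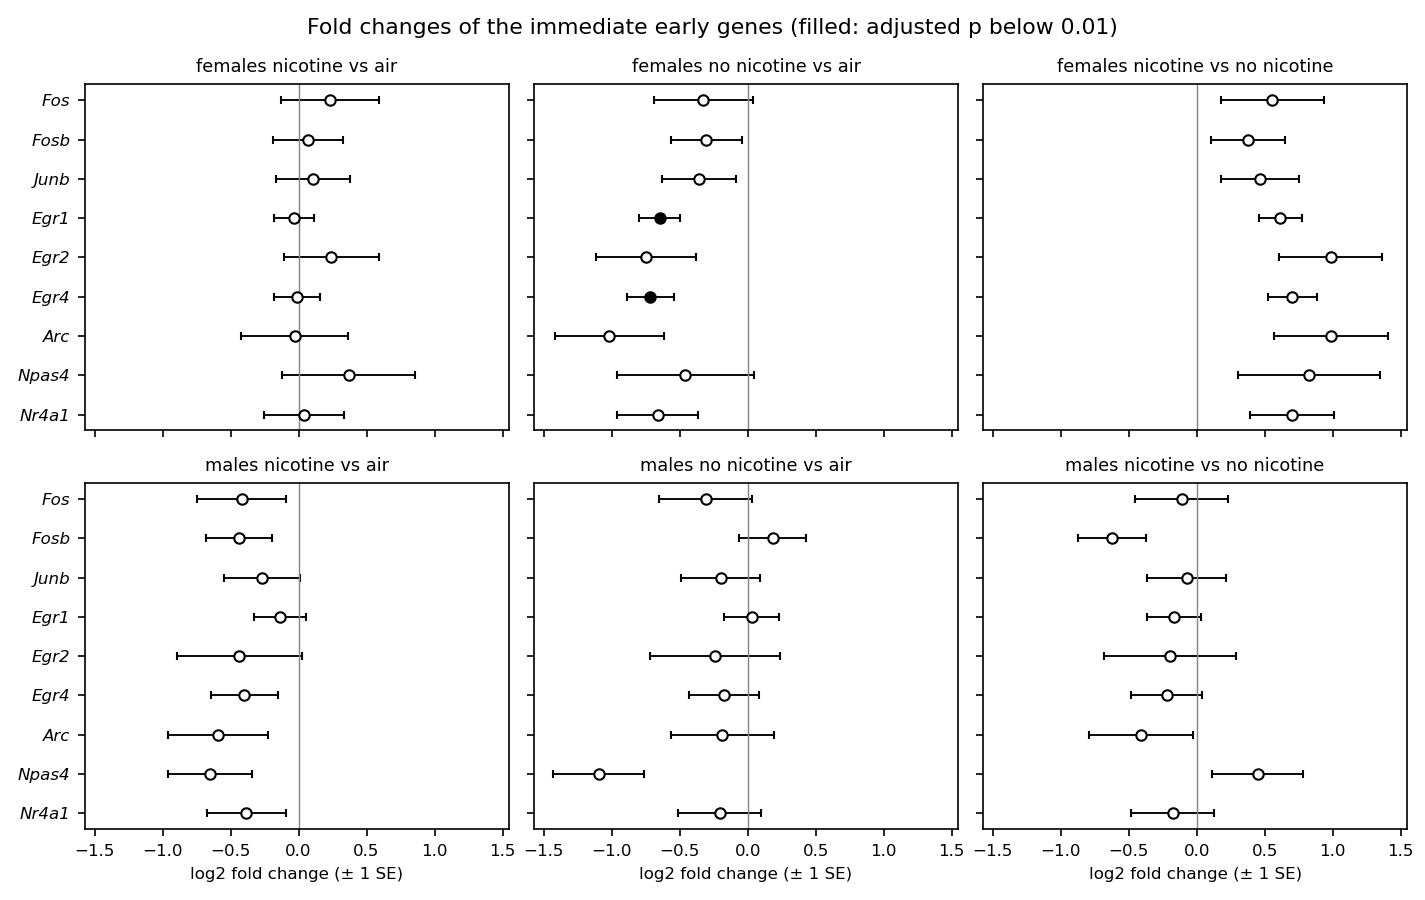
Log2 fold change (horizontal axis) ± 1 SE of the 9 genes in each of the 6 comparisons within a sex, from the edgeR fits, with filled points for an adjusted p below 0.01. Only Egr1 and Egr4 in females without nicotine against air are filled, all 9 genes lie left of 0 in that panel and in that of males with nicotine against air, and Npas4 lies farthest left in males without nicotine.

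Whether the sexes differed in the change against air was tested on the 15105 genes tested in both, and sex and sequencing run cannot be told apart there. For nicotine the 9 differences, females minus males, were all above 0 (log2 0.11 to 1.02, SE 0.26 to 0.62), and without male nicotine replicate 21 they ran from 0.03 to 0.92. For aerosol without nicotine 8 of the 9 were below 0 (log2 -0.82 to 0.65), the exception being Npas4 at 0.65 ± 0.63. None passed the threshold by edgeR, DESeq2 or limma-voom in either (edgeR adjusted p of 0.825 or more), and 0% of all genes did by edgeR in either. In the nicotine comparison none of the 9 had an unadjusted p below 0.05 (6.47% of all genes). In that without nicotine 1 had (4.91% of all genes), which was Egr1, with -0.67 ± 0.27 (adjusted p = 0.945). The fall of Egr1 and Egr4 was therefore not shown to differ between females and males.

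The spread between animals of 1 group was wide for these genes. The standard deviation of log2 CPM, pooled over the 3 groups of a sex, was 1.00 for Npas4, 0.83 for Arc, 0.75 for Fos, 0.71 for Egr2, 0.61 for Nr4a1, 0.55 for Junb and 0.49 for Fosb in females. Egr4 (0.32) and Egr1 (0.29) were the least variable. The median gene of at least 5 CPM had 0.107, and among the 11379 such genes Npas4 ranked 7 and Arc 13, while Egr1, the lowest of the 9, ranked 486. In males Egr2 was the most variable (0.96, rank 10 of 11448), followed by Arc (0.74), Fos and Npas4 (0.65 and 0.64), and Egr1 again the least (0.38, rank 183), with a median gene at 0.103. Without male nicotine replicate 21 the male values ran from 0.37 (Egr1) to 0.91 (Egr2). Within 1 group the highest library exceeded the lowest by up to 7.63 times (Npas4 in female air) and by no less than 1.39 times (Egr4 in female air).

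These deviations ran in parallel across the 9 genes. In male air, replicates 33 and 37 were above the group mean in 9 of 9 genes and replicate 30 in 8, while replicates 31, 38 and 39 were above it in 0 of 9. Egr2 in that group was at 25.1, 24.9 and 16.5 CPM in replicates 33, 37 and 30 and at 4.76, 4.67 and 5.23 CPM in replicates 31, 38 and 39. In females, nicotine replicate 5 was below its group mean in all 9 genes, by 1.20 on the log2 scale on average, with Arc at 44.3 CPM against 226 to 266 CPM in the other 4. Air replicate 4 was below its group mean in 8 of 9 genes, with Fos at 18.4 CPM, but its Egr1, at 437 CPM, was the second highest of the air libraries.

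**Figure D3:**
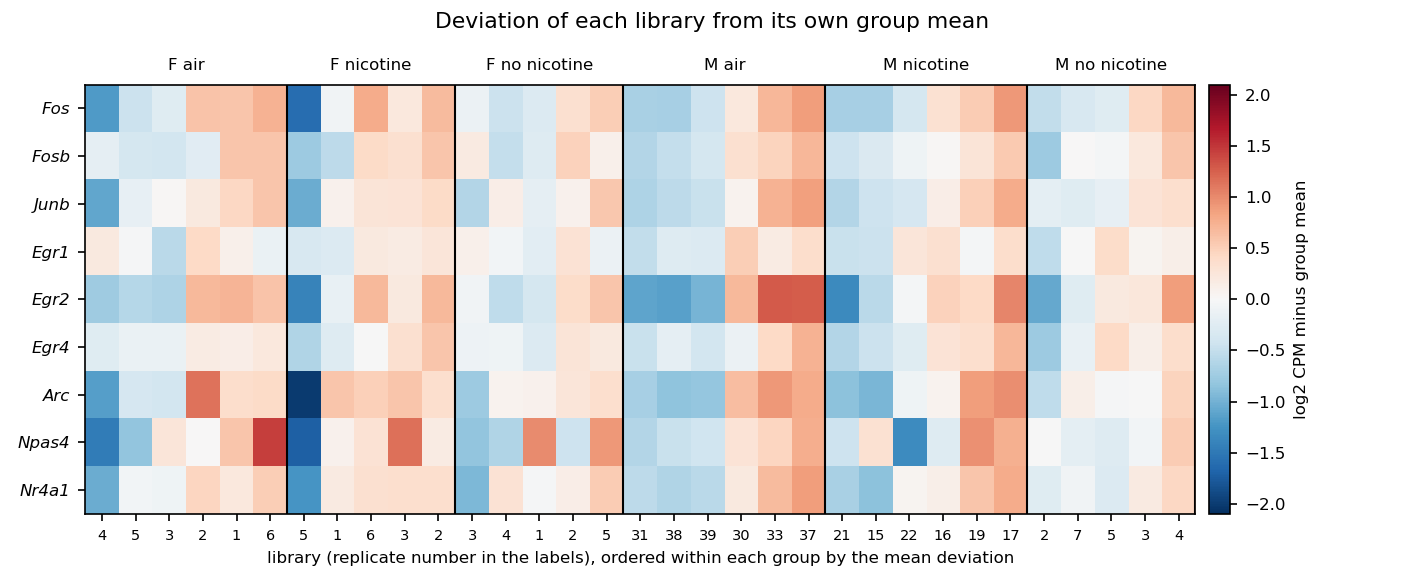
Deviation of log2 CPM from the mean of the library's own group (colour, red above and blue below) for the 9 genes (rows) in the 33 libraries (columns, labelled by replicate number and ordered within each group by the mean deviation of the 9 genes). Columns are mostly of 1 colour: the libraries at the left of the female nicotine group (5) and of the male air group (31, 38 and 39) are below their group mean in all 9 genes.

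Over the 36 pairs of the 9 genes, Pearson's r of these deviations had a median of 0.746 in females (n = 16) and 0.872 in males (n = 17). After Benjamini-Hochberg adjustment of the permutation p over all 72 values, 27 of 36 pairs in females and 35 of 36 in males were below 0.05, and with Spearman's rho (median 0.701 and 0.865) 24 and 35. Without the 2 libraries farthest from the median, the median r was 0.559 and 0.815. In the exposed groups alone, without the divided male air group, it was 0.757 and 0.833, and in males it was 0.856 with nicotine replicate 21 left out. The closest pair in females was Fos and Egr2 (r = 0.966, rho = 0.924, r = 0.976 without the 2 farthest libraries, permutation p = 1e-05, the smallest that the permutations can give). In males it was Fos and Junb (r = 0.974, rho = 0.956, r = 0.964 without the 2 farthest libraries, permutation p = 1e-05).

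In females Egr1 followed the others least, with a median r with the other 8 of 0.401, and 2 of its 8 pairs passed the adjusted threshold. In males Npas4 followed least, with a median r of 0.642, against 0.755 for Egr1. For each of these 2 genes 7 of 8 pairs passed in males. The r of Egr1 with Npas4 was the lowest of all pairs in both sexes, at -0.06 in females (rho = -0.115, permutation p = 0.837, r = -0.32 without the 2 farthest libraries) and 0.26 in males (rho = 0.309, permutation p = 0.354, r = 0.19 without them). In females this rested in part on air replicate 4, without which the lowest r over all pairs was 0.04.

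Among 11323 genes of at least 5 CPM in both sexes, the 9 included, Sik1, a salt-inducible kinase, was the one outside the 9 whose deviations were most like their mean deviation, with r = 0.901 over 16 female libraries and 0.941 over 17 male ones. It was followed by Tiparp (0.909 and 0.902), a mono-ADP-ribosyltransferase, Dusp1 (0.893 and 0.912), a phosphatase of MAP kinases, and Gadd45b (0.846 and 0.938), a stress-response gene. Klf2, Ier2, Arl4d and Gadd45g completed the 8 most alike, with r from 0.797 to 0.905 in females and from 0.829 to 0.854 in males. Of these 8, all but Tiparp and Arl4d were in the list of other primary response genes described next. By the same measure Fos and Egr2 were nearest to the mean of the 9, in part because they enter it, and Npas4 and Egr1 farthest (mean r 0.742 and 0.651).

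Within a library, the level of Npas4 relative to the other 8 genes was also compared, a measure chosen after the values were seen and given without a test. On the log2 scale it was -1.25 to -0.89 in the 6 male air libraries (mean -1.03 ± 0.13, SD) and -2.31 to -1.44 in the 5 male no nicotine libraries (mean -2.02 ± 0.35), so that the groups did not overlap. The difference of -0.99 remained between -1.14 and -0.92 when any 1 library was left out. The male air libraries, divided in the level of all 9 genes, thus held Npas4 in a nearly fixed proportion to the rest. In females the same measure ranged from -3.15 to -1.35 in air and from -2.93 to -1.02 without nicotine, and the groups overlapped. Among the 54 relative levels computed (9 genes, 6 comparisons) this was the only 1 whose groups did not overlap. By plain log2 CPM the groups of 12.4% of all genes did not overlap in males without nicotine against air. A share over all genes was not computed for the relative level. In the same male comparison the relative level of Fosb was 0.41 higher without nicotine, with groups that overlapped.

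**Figure D4:**
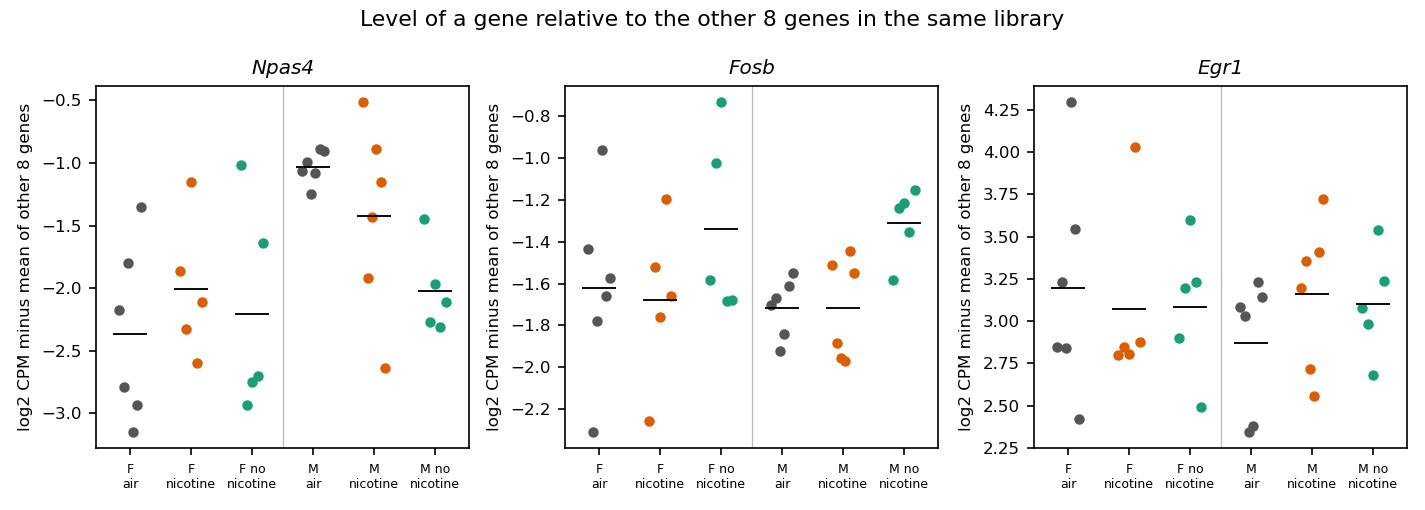
Log2 CPM of Npas4, Fosb and Egr1 minus the mean log2 CPM of the other 8 genes in the same library (vertical axis) for the 6 groups (horizontal axis), 1 point per library and a line at the group mean. Npas4 lies between -1.25 and -0.89 in all 6 male air libraries and below -1.44 in 4 of the 5 male no nicotine libraries, with the fifth at -1.44.

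Of 28 further primary response genes 27 were tested, and 5 fell in females without nicotine against air: Klf10 (-0.74 ± 0.14, adjusted p = 0.00190), Ier5, Egr3, Dusp6 and Nr4a2, the last with the largest change (-1.69 ± 0.40, adjusted p = 0.00614). Over all genes 7.03% were called lower there. In males without nicotine 3 fell, against 7.47% of all genes called lower, a share near the background: Nr4a2 (-1.28 ± 0.22, adjusted p = 0.000519), Klf6 and Egr3. In both nicotine comparisons with air 0 of the 27 passed the edgeR test. Their median log2 fold change was -0.21 in females and -0.04 in males without nicotine, and 0.00 and -0.16 with nicotine. Sik1, so close to the 9 genes between animals, had log2 fold changes of 0.22 ± 0.22 in females and 0.31 ± 0.21 in males without nicotine, neither past the threshold.

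Late activity-regulated genes follow the immediate early genes and include secreted and synaptic proteins. Of 12 such genes 7 fell in females without nicotine (7.03% of all genes called lower), among them Bdnf, a neurotrophin (-0.89 ± 0.11, adjusted p = 0.000802), Ptgs2 (-0.91 ± 0.16, adjusted p = 0.00126) and Homer1, a scaffold of the postsynapse (-0.76 ± 0.14, adjusted p = 0.00165). In males without nicotine Bdnf, Nptx2, Nrn1 and Ptgs2 fell (7.47% of all genes called lower), led by Nrn1, a neurite outgrowth protein (-1.12 ± 0.14, adjusted p = 3.24e-05), and 1, Scg2, rose (0.41 ± 0.10, adjusted p = 0.00791). In females with nicotine Bdnf was the only one to pass by edgeR (-0.78 ± 0.11, adjusted p = 0.000816), where 4.29% of all genes were called and 2.32% lower. DESeq2 called more of the 12 there, as given below. In males with nicotine 0 of 12 passed by edgeR. Bdnf fell in the female nicotine group, in which Fos, Egr1 and Npas4 were at -0.03 to 0.37 on the log2 scale, with SEs of 0.15 to 0.49. Whether the change of Bdnf differed from theirs was not tested.

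Of 18 factors and kinases that act upstream of immediate early genes, 6 fell in females and 7 in males without nicotine, 2 (Mef2c and Mef2d) fell in females with nicotine and 0 passed in males with nicotine. Over all genes 7.03%, 7.47%, 2.32% and 0% were called lower in these comparisons. Mef2c, a MADS-box factor of cortical neurons, led in each (-0.91 ± 0.14, adjusted p = 0.000841, in females and -0.89 ± 0.09, adjusted p = 2.14e-05, in males without nicotine; -0.71 ± 0.14, adjusted p = 0.00388, in females with nicotine). Creb1 and Srf, which encode the factors of the cAMP response element and the CArG box, had log2 fold changes of -0.17 to 0.04 in the 4 comparisons with air, none past the threshold.

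Markers of other cells and regions moved with the same groups. In females without nicotine 12 of 16 markers of cortical glutamatergic neurons were lower and 1, Foxp2, higher, and their summed level was 4366 to 8162 CPM against 8284 to 10461 CPM in air. All 8 markers of basal forebrain cholinergic neurons were higher (summed 116 to 302 CPM against 23.4 to 90.2), as were 7 of 8 of myelin (10726 to 16030 against 7977 to 9595 CPM) and 2 of 12 of striatal projection neurons, Six3 and Tac1 (2252 to 2842 against 1159 to 2832 CPM). Chat, the enzyme that makes acetylcholine, rose most clearly (log2 fold change 2.15 ± 0.28, adjusted p = 0.000802). Over all genes 5.03% were called higher and 7.03% lower. None of these lists had a gene at 0 in every library.

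Markers of the same lists were called in females with nicotine, in which the 9 genes did not pass. Of 16 glutamatergic markers 3 were lower, against 12 without nicotine, and 1 higher (summed 5683 to 8256 CPM, 2.32% of all genes called lower). The median log2 fold change of the 16 was -0.60 with nicotine and -0.64 without, and 0 of the 16 passed between the exposed female groups. Higher were 8 of 8 cholinergic (94.2 to 211 CPM), 8 of 8 myelin and 4 of 12 striatal markers (1.98% of all genes called higher). The cholinergic calls were all lost with the replicate block. In males without nicotine the counts were 12 lower and 1 higher, 8 of 8 (124 to 259 CPM against 41.3 to 90.4 in air), 7 of 8 and 4 of 12, with 6.15% of all genes called higher and 7.47% lower. In males with nicotine none of these passed by edgeR, with summed cholinergic markers of 105 to 157 CPM. Of 8 interneuron markers 4 rose in females without nicotine (Gad1, Gad2, Lhx6 and Slc32a1) and Vip fell. Vip also fell in females with nicotine, where Gad2 and Slc32a1 rose, and in males without it, where Gad2, Lhx6 and Slc32a1 rose. Of 8 thalamic markers Gbx2, Tcf7l2 and Zic1 rose in the same 3 comparisons, and Ramp3 fell in females without nicotine (-0.80 ± 0.19, adjusted p = 0.00650). In males without nicotine 3 of 6 choroid plexus markers also rose, Clic6 (1.44 ± 0.19, adjusted p = 6.00e-05), Otx2 and Ttr. Their summed level there was 30.1 to 52.1 CPM in 4 libraries and 946 CPM in replicate 7, against 13.5 to 39.3 CPM in male air. Without replicate 7 the log2 fold change of Npas4 was -1.04 (adjusted p = 0.0444). In females the summed choroid plexus level was also high in air replicates 3 (325 CPM) and 6 (109 CPM) and no nicotine replicate 3 (284 CPM). It was 14.6 to 43.1 CPM in the other female libraries. Of 8 hypothalamic markers, 6 of them tested, Oxt rose in males without nicotine (2.54 ± 0.57, adjusted p = 0.00338). None of the 8 astrocyte, 8 microglia, 8 endothelial or 6 olfactory bulb markers passed in any comparison. In bulk tissue fewer cells of a type and less RNA per cell cannot be told apart, and the part of tissue makeup in the values of Egr1, Egr4 and Npas4 was not tested.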

How the data were processed

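RNA-Seq libraries of frontal cortex from 33 offspring were grouped by the labels into 3 treatments within each sex. The authors deposited raw counts per gene in 1 table per sex. They had demultiplexed single reads with bcl2fastq, mapped them to the mm9 transcriptome with Bowtie, removed PCR duplicates with SAMtools and counted with HTSeq, and the removal of duplicates can lower the counts of short, abundant transcripts. Their tables of counts divided by 1 DESeq2 size factor per sample were not used, nor was 1 column of the count tables that no labelled sample matched.

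Here, genes whose CPM summed to at least 5 over the libraries of a sex entered edgeR 4.0.16 (quasi-likelihood test, R 4.3.3, TMM, no covariates), with the 3 treatments of a sex in 1 fit, Benjamini-Hochberg adjustment over all genes tested and a threshold of 0.01. The sexes were compared in a fit of all 6 groups. Log2 CPM used a prior count of 1. Exact two-sided permutation tests were run per gene, and correlations used 100000 shuffles within groups. The fit was tested on simulated data. Alternatives were DESeq2 1.42.0, limma 3.58.1 (voom with sample weights), robust dispersion, 2 normalizations, 2 filters, a threshold of 0.05, fits of only 2 groups, a replicate block and leaving out each library.

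The 9 genes and the lists of other genes were chosen with earlier results of these data known. Named beside the 9 were the 8 genes most like them across libraries and, per list, the gene with the lowest p among those called in each comparison with air. Any other gene named was chosen after its values were seen. The precision is limited by 5 or 6 animals per group, since each of the 9 genes had at least 74 counts in every library.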

Additional observations from a re-analysis of the deposited data

Results flagged for a closer look

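In 3 of the 54 sets of 1 gene in 1 group, the gap between the most extreme library and its nearest neighbour, relative to the range of the group, exceeded Dixon's 95% critical value. Chance alone flags about 1 set in 20. In the female nicotine group replicate 5 was far below the others for Arc, at 44.3 CPM (gap over range 0.821), and for Nr4a1, at 40.8 CPM (0.842). In the male no nicotine group replicate 4 was far above the others for Npas4, at 20.7 CPM (0.738). Without female nicotine replicate 5 the log2 fold changes against air were 0.23 for Arc and 0.24 for Nr4a1.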

How the results depend on the processing

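Of 2142 alternative values for the 72 fold changes, 2062 kept the direction and the side of the threshold, 18 lost the call, 3 gained it and 59 changed sign, none of these 59 in a fold change that had passed. In females without nicotine against air 2 of the 9 genes passed, Egr1 and Egr4. They passed under DESeq2, limma-voom, robust dispersion, both other normalizations, both other filters, the threshold of 0.05 and the fit of only 2 groups. Leaving out 1 library at a time gave 0 to 2. In males without nicotine 0 passed, against 1, Npas4, at a threshold of 0.05 and in the fit of only 2 groups, and 0 to 1 without 1 library. Fits without 1 library gave 0 in every other comparison.

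Counts of called genes in the other lists moved more. In females with nicotine against air, DESeq2 against edgeR called 5 against 1 of the later activity-regulated genes and 9 against 4 of the cortical glutamatergic markers, and the replicate block left 0 of the 8 cholinergic markers called. In females without nicotine the block left 3 of 5 other primary response genes, 3 of 7 later activity-regulated genes, 2 of 6 upstream factors and kinases and 5 of 13 cortical glutamatergic markers, by number. In males, DESeq2 called 7 cholinergic markers with nicotine against air where edgeR called 0, and without nicotine 5 against 3 other primary response genes and 8 against 5 later activity-regulated genes.

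The female labels share replicate numbers. Same-numbered female libraries did not deviate together (4 of 14 pairs above a correlation of 0.1, median 0.014, and 5 best matched with their own number), so the numbers were not taken as pairs. With the replicate block 0 of the 9 genes passed without nicotine, where adjusted p was 0.0108 for Egr1 and 0.0130 for Egr4. Over all genes the block left 136 of 651 calls by number with nicotine and 736 against 1829 without. No paired analysis was possible in males because their groups share no numbers.

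In females with nicotine against air, the sign of the log2 fold change turned under limma-voom (Fosb, -0.0053), the block (Fosb, -0.048, and Nr4a1, -0.0050) and upper quartile scaling (Egr4, 0.0063). Without 1 library it ran from -0.080 to 0.23 for Fosb, -0.051 to 0.29 for Junb, -0.13 to 0.053 for Egr1, -0.18 to 0.12 for Egr4, -0.19 to 0.27 for Arc and -0.11 to 0.24 for Nr4a1. In males without nicotine it turned under limma-voom for Egr2 (0.13) and Arc (0.041), and ran without 1 library from -0.31 to 0.0059 for Junb, -0.073 to 0.14 for Egr1, -0.51 to 0.029 for Egr2, -0.28 to 0.00075 for Egr4, -0.33 to 0.0071 for Arc and -0.33 to 0.0018 for Nr4a1. Between the exposed male groups it ran from -0.33 to 0.096 for Fos, -0.26 to 0.035 for Junb and -0.44 to 0.080 for Egr2. The difference between the sexes ran from -0.0017 to 0.20 for Egr1 with nicotine and from -0.21 to 0.20 for Fos without it. The cause of these changes was not tested.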
